A study of Mus musculus with 4 samples.

Results

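The Rab GTPases were the genes whose symbol is Rab, a number and at most 1 letter with 1 digit, and which have at least 1 protein-coding transcript in the annotation GENCODE M21. The rule used no measured value and found 59 members among 55536 annotated genes. They were described in polyA RNA-seq of bone-marrow-derived macrophages (BMDM), macrophages that mouse bone marrow cells give rise to in culture. The cells came from C57BL/6J mice and formed 1 group of 4 libraries. Per the sample descriptions, every library had Lipid A, the lipid anchor of lipopolysaccharide and a ligand of the receptor TLR4, at 100 ng/mL for 12 h, then 12 h after washing out, then 100 ng/mL again for 60 min. Elsewhere in the labels the agent is given as lipoprotein A and no washing out is mentioned, so the labels conflict on both. They record the age and sex of the animals as not collected. They number the libraries as biological replicates 1 to 4 and give all of them 1 donor identifier. The spread over libraries may therefore be partly technical, and the p-values below measure only that spread. Cells with no or a single exposure are not analysed here, so no level below is a response to Lipid A.

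Rab proteins are small GTPases that switch between a GTP-bound form on a membrane and a GDP-bound form in the cytosol. Each marks particular organelles and recruits effectors there that bud, move, tether or fuse vesicles. Exchange factors load them with GTP, TBC-domain proteins speed up its hydrolysis, and GDI takes the GDP-bound form off the membrane. In macrophages they are best known for guiding phagosomes and endosomes towards lysosomes and for moving TLR4 and cytokines to and from the cell surface.

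The libraries held 23167140 to 41453162 expected counts on genes, and the members took 0.455% to 0.506% of them. All 8 macrophage markers, among them Adgre1, Csf1r and Cd68, were at 1 TPM or more in every library, with a summed level of 16311 to 18898 TPM. TPM is the abundance of a gene's transcripts per length, scaled to the same total in each library. Of the markers of stroma, erythroid cells, mast cells or basophils, dendritic cells, T cells and NK cells none reached 1 TPM in every library, and of those of B cells 1 of 4 did.

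Most Rab proteins are held on membranes by lipid groups that geranylgeranyl transferase attaches to cysteines at the carboxyl end, so the end of the coding sequence shows whether a transcript encodes them. For each member the complete coding transcript with the highest share was read in the RNA sense, in frame, over its last 6 codons before the stop. In 59 of 59 members at least 1 of these codons was TGC or TGT, the codons of cysteine, and in 50 at least 2 were. Among the 21719 other genes with a complete coding transcript 14.0% had at least 1 and 2.03% at least 2. The arrangement differed between members. The last 10 codons of transcripts that the results below turn on were read from the GENCODE M21 transcript sequences (mm10) and are shown 5′ to 3′ with the cysteine codons in capitals.
Rab7-205: gccaaggcctccgcagaaagcTGCagtTGT
Rab1a-201: ccagtcaagcagtcaggtggaggcTGCTGC
Rab8a-201: aggaccagcttcttccggTGCagtctcctg
Rab8b-201: aagaccagtttcttccgcTGTtctctgctt
Rab11a-208: aagccaaaggtgcagTGCTGTcagaacatc
Rab11a-206: gagaagaatgaagcaaatgtcagacagacg
Rab28-201: cctcctcggagctccatgTGTgcagtgcag
Rab28-205: aaagcagaaatagaacagtcacagactgta
Rab7 ended on a pair of cysteine codons with 1 codon between them, and Rab1a on 2 adjacent ones. In Rab11a-208 the pair was followed by other codons. Rab8a and Rab8b had a single cysteine codon followed by 3 others, and so did Rab28-201. The last lines of Rab11a-206 and Rab28-205 hold no cysteine codon. These letters say what the annotated coding sequence contains and not whether a protein was made or lipidated.

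Of the 59 members 40 were at 1 TPM or more in every library, which is 67.8%, against 44.1% of 22028 genes annotated as protein coding. The median mean level of these 40 was 58.7 TPM, against 18.4 TPM for the 9704 protein-coding genes that met the same threshold. Levels fell steeply along the family. There were 11 members at a mean of 100 TPM or more, 20 between 10 and 100 TPM and 9 detected members under 10 TPM. The 11 highest held 67.0% of the summed TPM of all members, and the first 2, Rab7 and Rab5c, held 21.2%. Members together made up 0.323% to 0.344% of all TPM.

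**Figure D1:**
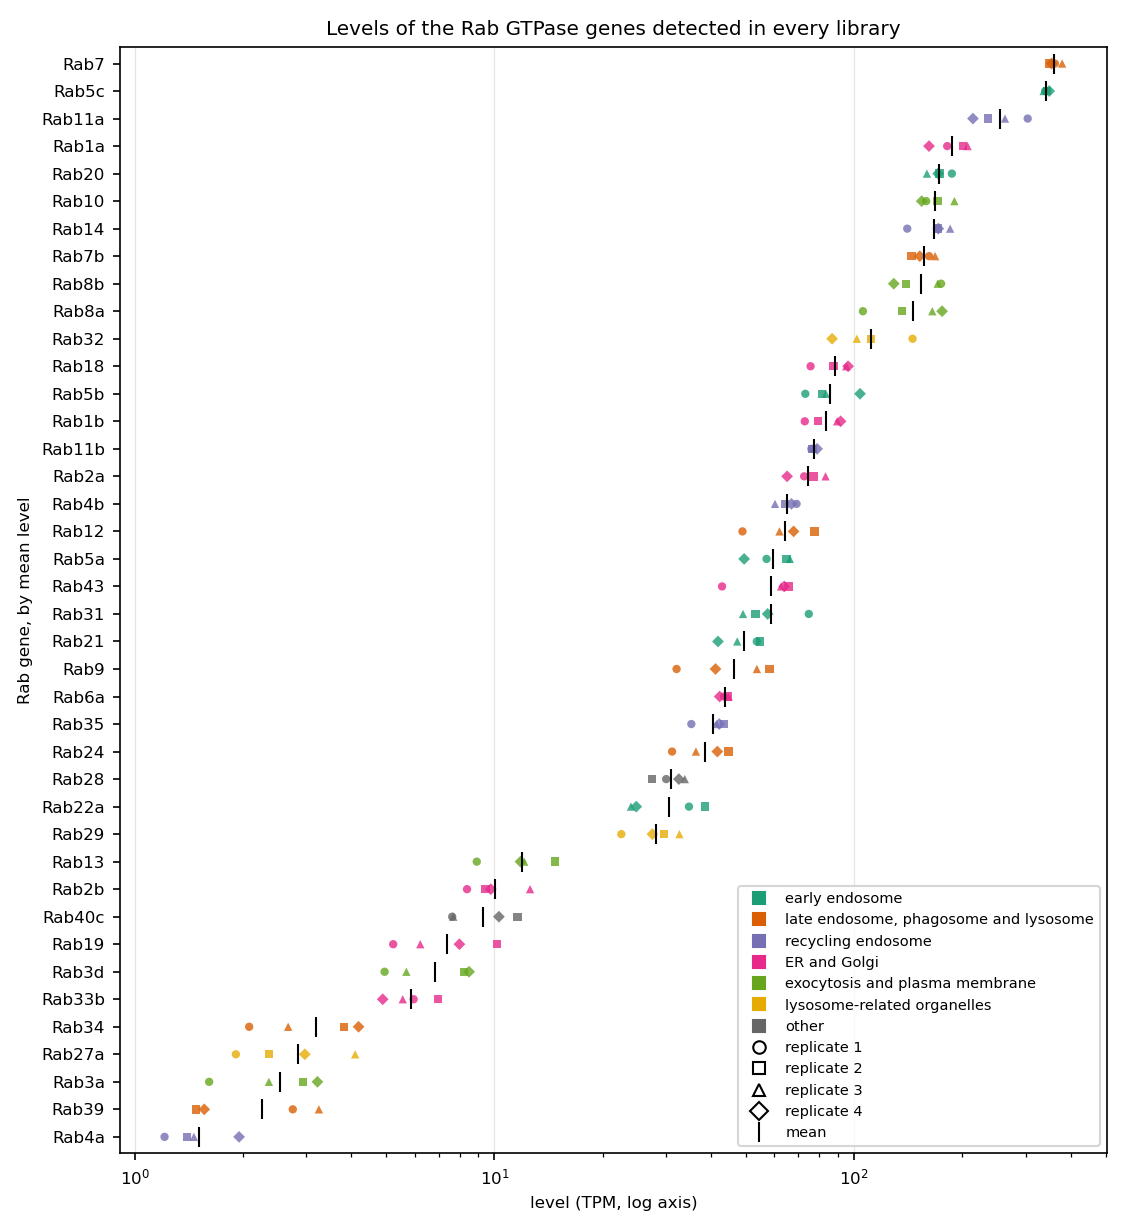
Level in TPM on a log axis of each Rab gene at 1 TPM or more in every library, ordered by mean; symbols are the 4 replicate libraries, colours the role group, and the black bar the mean. Rab7 and Rab5c lie highest with libraries close together, and the libraries of low genes such as Rab39 and Rab27a lie farther apart on this scale.

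Each member was assigned here to a single role group. By these assignments early endosomes had the highest summed level. The 7 members assigned there summed to 798 ± 23.3 TPM (SD, n = 4), or 24.1% of the family, and all 7 were detected. Rab5c (chr11:100715009-100738215, mm10), 1 of 3 forms of the Rab5 that drives fusion of incoming endocytic vesicles, had 339.8, 343, 336 and 349 TPM in replicates 1 to 4. The highest library was 1.04 times the lowest, which is the narrowest range of any detected member. Rab5b had 73.2, 81.3, 83.4 and 104 TPM and Rab5a 57.1, 64.8, 66.3 and 49.45 TPM, so that neither overlapped with Rab5c. Rab20 (chr8:11453518-11478710), which acts in phagosome maturation, had 187, 173, 159 and 171 TPM. Assigned instead to late endosomes, phagosomes and lysosomes, Rab20 would put that group first, so the order of the groups depends on the assignments. Rab31 and Rab22a are close relatives that work between endosomes and the Golgi. Rab31 had 74.8, 53.2, 49.1 and 57.5 TPM and Rab22a 34.7, 38.5, 24.0 and 24.8 TPM, with Rab31 higher in each library. Rab21, which carries integrins in endosomes, averaged 49.4 ± 5.98 TPM (SD, n = 4).

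The members of late endosomes, phagosomes and lysosomes summed to 671 ± 27.0 TPM (SD, n = 4), 20.3% of the family, with 7 of 9 detected. Rab7 (chr6:87999106-88045270), which directs fusion of late endosomes and phagosomes with lysosomes, was the highest member, at 362, 348, 379 and 354 TPM. It lay above Rab5c in 4 of 4 libraries, by 0.08 ± 0.07 on the log2 scale, but by complete coding transcripts only it was below Rab5c in replicates 2 and 4. Rab7b (chr1:131688695-131715439), which has been reported in mouse macrophages to send TLR4 to lysosomes, had 162, 144, 168 and 152 TPM. Its coding transcripts differ in length. Rab7b-201, with 157 codons, took 60.4% ± 1.91 of the gene's TPM (SD, n = 4), and Rab7b-202, with 199 codons, took 36.4% ± 2.61. By expected counts, which are not divided by length, the order was the reverse, at 35.4% ± 2.13 and 64.2% ± 2.21. The shorter one lacks 42 codons from within the sequence and keeps the cysteine codons at the end. Rab9, which returns mannose 6-phosphate receptors to the Golgi, had 32.1, 58.2, 53.7 and 41.2 TPM, and its library from replicate 1 was the lowest. Rab12 averaged 64.1 ± 12.0 TPM and Rab24, a Rab linked to autophagy, 38.5 ± 5.98 TPM.

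Rab34, which acts in phagosome maturation, averaged 3.19 ± 0.981 TPM (SD, n = 4). Rab39 had 2.75, 1.48, 3.25 and 1.56 TPM in replicates 1 to 4, so it was higher in replicates 1 and 3 than in the others. The neutrophil marker list was also higher there, summing to 125, 12.7, 98.3 and 12.1 TPM, with 2 of 7 markers, S100a8 and S100a9, at 1 TPM in every library and Ly6g listed at 0 in all. The platelet and megakaryocyte list, of which only Pf4 among 4 markers was detected, summed to 270.1, 154, 300.0 and 139 TPM. In bulk RNA more cells of a type and more RNA per cell cannot be told apart. The part of either list in the level of Rab39 was not tested, and Rab39 did not pass the test of variability given below (edgeR, adjusted p = 0.95).

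Recycling endosome members summed to 605 ± 25.9 TPM (SD, n = 4), with 6 of 9 detected. By complete coding transcripts only they summed to a mean of 405 TPM, below the ER and Golgi members at 540 TPM. Rab11a (chr9:64715299-64737758), the main Rab of the recycling endosome, had 304, 236, 263 and 214 TPM, and Rab11b 76.1, 76.55, 77.0 and 78.9 TPM. Rab14 (chr2:35180205-35201120), found on early and recycling endosomes and on phagosomes, had 140.5, 171, 185 and 171 TPM. Rab4b and Rab4a are paralogs of fast recycling. Rab4b averaged 65.1 ± 3.85 TPM and Rab4a 1.505 ± 0.315 TPM, so almost all Rab4 message was from Rab4b. Rab35, which acts in recycling to the plasma membrane, averaged 40.6 ± 3.65 TPM. The epithelial Rab17 and Rab25 and the neuronal Rab15 were not detected.

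The 12 members of the endoplasmic reticulum (ER) and Golgi summed to 561 ± 43.2 TPM (SD, n = 4), with 9 detected. Rab1a (chr11:20201432-20226856), needed for transport from the ER to the Golgi, had 181, 201, 207 and 161 TPM, and its paralog Rab1b had 72.9, 79.4, 89.7 and 91.7 TPM. Rab2a, which acts between the same organelles, averaged 74.5 ± 7.64 TPM and Rab2b 10.04 ± 1.78 TPM. Rab18, found on the ER and on lipid droplets, averaged 88.6 ± 9.46 TPM. Rab6a, the Rab of Golgi exit and of retrograde transport, had 43.5, 44.6, 44.8 and 42.3 TPM, a ratio of highest to lowest of 1.06. Its paralog Rab6b averaged 0.330 ± 0.122 TPM.

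Of the 11 members of exocytosis and the plasma membrane 6 were detected, and the group summed to 489.6 ± 40.1 TPM (SD, n = 4). By complete coding transcripts only the mean sum was 388 TPM. Rab10 (chr12:3247428-3309969), reported to bring TLR4 to the surface of mouse macrophages, had 159, 170.5, 190.0 and 154 TPM. Rab8b (chr9:66843664-66919687) had 174.5, 139, 171 and 129 TPM and Rab8a (chr8:72161200-72183904) 106, 136, 165 and 176 TPM; both act in delivery to the plasma membrane, and Rab8a also in signalling from Toll-like receptors in macrophages. Their ranges overlapped. Rab13 averaged 11.9 ± 2.38 TPM, Rab3d 6.84 ± 1.79 TPM and Rab3a 2.53 ± 0.710 TPM. The other Rab3 genes, which work in regulated secretion of neurons and endocrine cells, had 2 counts over 4 libraries for Rab3b and none for Rab3c.

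Among the 5 members of lysosome-related organelles Rab32 (chr10:10545002-10558265), which serves melanosomes and the defence against bacteria in macrophages, had 145, 112, 102 and 86.8 TPM. Its close relative Rab38 was far lower, at 0.340, 1.86, 2.65 and 2.46 TPM, and replicate 1, with 8 counts, was below the detection threshold. Rab29, a partner of the kinase LRRK2, averaged 28.1 ± 4.27 TPM (SD, n = 4). Rab27a, which docks secretory lysosomes and granules, averaged 2.83 ± 0.949 TPM, with 709 counts over the 4 libraries, and its paralog Rab27b had 19 counts.

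Near the threshold of detection, Rab23 had 0.820, 1.61, 1.34 and 1.76 TPM and Rab37, a Rab of secretory granules, 0.600, 0.790, 0.660 and 1.15 TPM. Both crossed 1 TPM in some libraries only. Of the 19 members that were not detected 16 had a count in some library. Rab9b, Rab25 and Rab3c had none in any, which allows up to 3 counts per library, or 0.0724 to 0.129 CPM, which are counts scaled to library size. At 3 counts or fewer in every library there were 8 members, including these 3. Such floors cover counting error only, since reads copied by PCR are not independent molecules.

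Neighbours in the order of levels mostly did not differ beyond their spread. Among the 31 members at a mean of 10 TPM or more there are 30 neighbouring pairs, and in 5 the mean log2 difference exceeded its SD over libraries with the same sign in 4 of 4. These were Rab7 over Rab5c, Rab5c over Rab11a, Rab11a over Rab1a, Rab24 over Rab28 and Rab29 over Rab13. The widest of these 5 steps was from Rab29 to Rab13, at 1.25 ± 0.18 on the log2 scale. The stretch from Rab1a to Rab24 held no such step, so the order inside it is a description of means. By complete coding transcripts only, 3 of the 5 steps did not hold. Rab7 was below Rab5c in replicates 2 and 4, at 330 and 344 TPM against 342 and 348 TPM. Rab11a was below Rab1a in every library, at a mean of 94.5 against 186 TPM. Rab24 was below Rab28 in replicates 1 and 3. By mean CPM Rab11a and Rab24 were also below Rab1a and Rab28.

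The level of a gene hid different kinds of transcript. By share of TPM the leading transcript was protein coding with a complete coding sequence in 38 of the 40 detected members. In 27 members such transcripts together made up 95% or more of the gene's TPM. The median over the 40 was 99.2%. In 20 members 1 transcript took 90% or more. Of the 34 members with several annotated transcripts 26 were led by the same transcript in 4 of 4 libraries. The members that departed most were Rab8a and Rab11a.

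**Figure D2:**
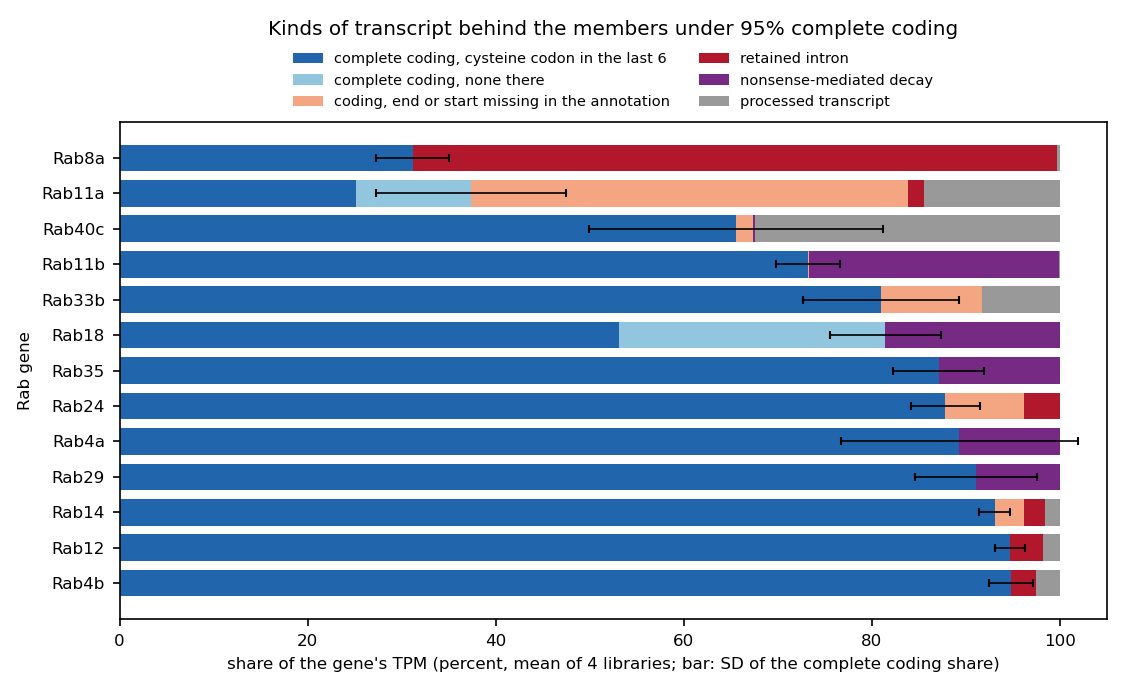
Share of each gene's TPM in percent (mean of 4 libraries) by kind of transcript, for the detected members in which complete coding transcripts made up less than 95%; the black bar is the SD of the complete coding share. Rab8a is mostly retained intron, the largest part of Rab11a is coding transcripts whose start or end is missing in the annotation, and Rab11b and Rab18 have the largest shares annotated as targets of nonsense-mediated decay.

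Rab8a was led in every library by Rab8a-202, a transcript of 542 bases annotated as retained intron, with 64.4%, 66.2%, 71.5% and 72.1% of the gene's TPM in replicates 1 to 4. The mean was 68.5% ± 3.85 (SD, n = 4), and the second quantification gave 70.4%. The only complete coding transcript, Rab8a-201 of 4550 bases, had 37.7, 45.0, 46.0 and 49.0 TPM, or 31.2% ± 3.88. Rab8a-202 contains exon 5 of the 8 exons of Rab8a-201 and runs 128 bases into the 393-base intron behind it. The boundary (chr8:72175900-72175959, plus strand, mm10) is shown with the exon in lower case and the intron in capitals.
Rab8a-202 boundary: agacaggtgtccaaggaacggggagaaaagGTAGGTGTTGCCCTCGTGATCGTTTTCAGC
By expected counts, which are not divided by length, the order was the reverse. Rab8a-202 took 12.5% ± 1.56 of the gene's counts and Rab8a-201 87.4% ± 1.56 (SD, n = 4). TPM divides counts by a length, so each count on the short transcript adds more to the gene's TPM than a count on the long one.

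Rab11a likewise has its TPM spread over short transcripts. Rab11a-201, of 595 bases and with the end of its coding sequence missing in the annotation, took 53.3%, 51.6%, 23.25% and 31.8% of TPM in replicates 1 to 4. The transcript with the full coding sequence of 216 codons, Rab11a-208 of 2336 bases, took 16.1% ± 1.21 of TPM and 58.4% ± 3.38 of expected counts (SD, n = 4). Complete coding transcripts together made up 37.4% ± 10.1 of TPM, and those with a cysteine codon at the end, as in the line of Rab11a-208 above, 25.2%. Counted by complete coding transcripts only, Rab11a averaged 94.5 ± 25.9 TPM and took rank 10 among the members in place of rank 3, and Rab8a averaged 44.4 ± 4.80 TPM and took rank 23 in place of rank 10. This measure and the count-based one were chosen after the data had been seen.

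**Figure D3:**
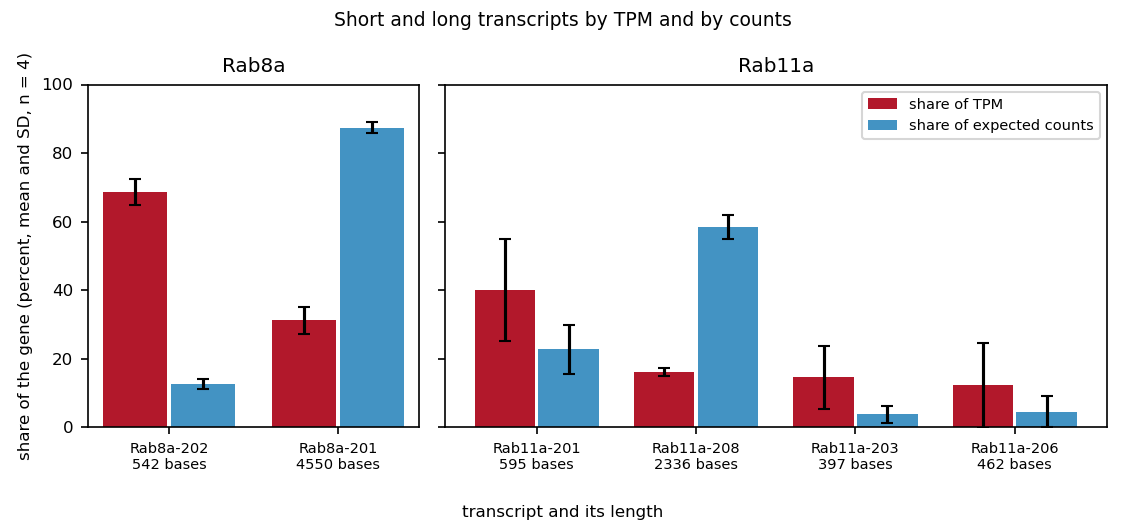
Share of the gene in percent for transcripts of Rab8a and Rab11a, by TPM (red) and by expected counts (blue); bars are means and error bars the SD over 4 libraries, with transcript length under each name. In both genes the long complete coding transcript has the largest share of counts, and a transcript of 542 or 595 bases has the largest share of TPM.

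Smaller departures were seen in other members. Rab11b-204, annotated as a target of nonsense-mediated decay, took 26.5% ± 3.40 of the TPM of Rab11b (SD, n = 4). Rab18-204 took 18.6% ± 5.86 of Rab18 and Rab35-202 took 12.9% ± 4.82 of Rab35. By expected counts these shares were smaller, at 11.8% ± 1.69, 1.30% ± 0.455 and 3.92% ± 1.57. In Rab28 the transcript Rab28-205, whose end without a cysteine codon is shown above, took 17.5% ± 5.37 of TPM and Rab28-201 79.3% ± 4.88. By expected counts they took 8.45% ± 2.80 and 87.4% ± 2.42. Rab18-201, with 28.4% ± 3.29 of the TPM of Rab18 and 17.2% ± 1.72 of its counts, also had a complete coding sequence without a cysteine codon in its last 6 codons. In Rab40c the libraries differed widely. Rab40c-201 had 71.7%, 0%, 72.65% and 36.95% in replicates 1 to 4, while Rab40c-209, with an identical coding sequence, had 69.1% in replicate 2 and was listed at 0 in the others. The second quantification gave Rab40c-209 only 2.91% in replicate 2 and Rab40c-201 59.1%, so that this switch was not seen there.

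Close paralogs were compared in 19 pairs, of which 18 had a member at 1 TPM or more in every library. Their coding sequences are 64.3% to 78.2% identical. In 17 of the 18 pairs the same paralog was higher in 4 of 4 libraries. The exact two-sided sign-flip test over libraries gave p = 0.125 for each of these 17, the smallest that 4 libraries allow, and 0.132 after Benjamini-Hochberg adjustment over the 18 pairs, so none passed 0.05. Differences below are of log2(TPM + 0.1), the first gene minus the second, with the SD over 4 libraries.

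Rab5c stood above Rab5a by 2.53 ± 0.21 and above Rab5b by 2.01 ± 0.20, and Rab5a minus Rab5b was -0.52 ± 0.37. Without replicate 4 the last difference was -0.34. Rab5c thus held most of the Rab5 message in every library. Rab7 minus Rab7b was 1.20 ± 0.05, the most even of the pairs over libraries, but 0.81 by counts not divided by length. Rab1a minus Rab1b was 1.17 ± 0.24 and Rab2a minus Rab2b 2.89 ± 0.20. Rab22a minus Rab31 was -0.95 ± 0.33 and Rab3a minus Rab3d -1.41 ± 0.14. In these families both paralogs were detected. By counts not divided by length, 5 of these differences moved by over 1.5 times with the same sign: Rab5c minus Rab5b was 1.20, Rab5a minus Rab5b -0.98, Rab1a minus Rab1b 1.78, Rab22a minus Rab31 -0.48 and Rab3a minus Rab3d -3.04.

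In other families 1 paralog held nearly all of the message. Rab6a minus Rab6b, a paralog known mainly from neurons, was 6.72 ± 0.43, Rab4a minus Rab4b -5.36 ± 0.29 and Rab32 minus Rab38 6.12 ± 1.53. Rab27a minus Rab27b was 4.24 ± 0.54 and Rab33a minus Rab33b -4.83 ± 0.80. Sizes against a paralog near 0 depend on the pseudocount: with 1 in place of 0.1 Rab6a minus Rab6b was 5.08, Rab27a minus Rab27b 1.83 and Rab33a minus Rab33b -2.60. Rab27b and Rab33a had 19 and 12 counts over the 4 libraries, and in the second quantification Rab27a minus Rab27b was 2.55. Rab9 averaged 46.3 ± 11.9 TPM (SD, n = 4) beside a Rab9b without a count, Rab40c 9.30 ± 1.97 TPM beside a Rab40b with 1 count and Rab39 2.26 ± 0.879 TPM beside a Rab39b with 1 count.

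Rab8a and Rab8b formed the exception, with Rab8a minus Rab8b at -0.09 ± 0.48 and Rab8b higher in 3 of 4 libraries (exact two-sided sign-flip p = 0.625, adjusted p = 0.625). By complete coding transcripts the difference was -1.78 ± 0.35, with Rab8b higher in 4 of 4, and by counts not divided by length -1.65 ± 0.37. Rab11a minus Rab11b was 1.71 ± 0.24 for the whole genes, 0.69 ± 0.49 by complete coding transcripts, with Rab11a higher in 3 of 4 libraries, and 0.33 ± 0.37 by counts. For both pairs the comparison of paralogs therefore depended on how transcript length and short transcripts were treated.

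**Figure D4:**
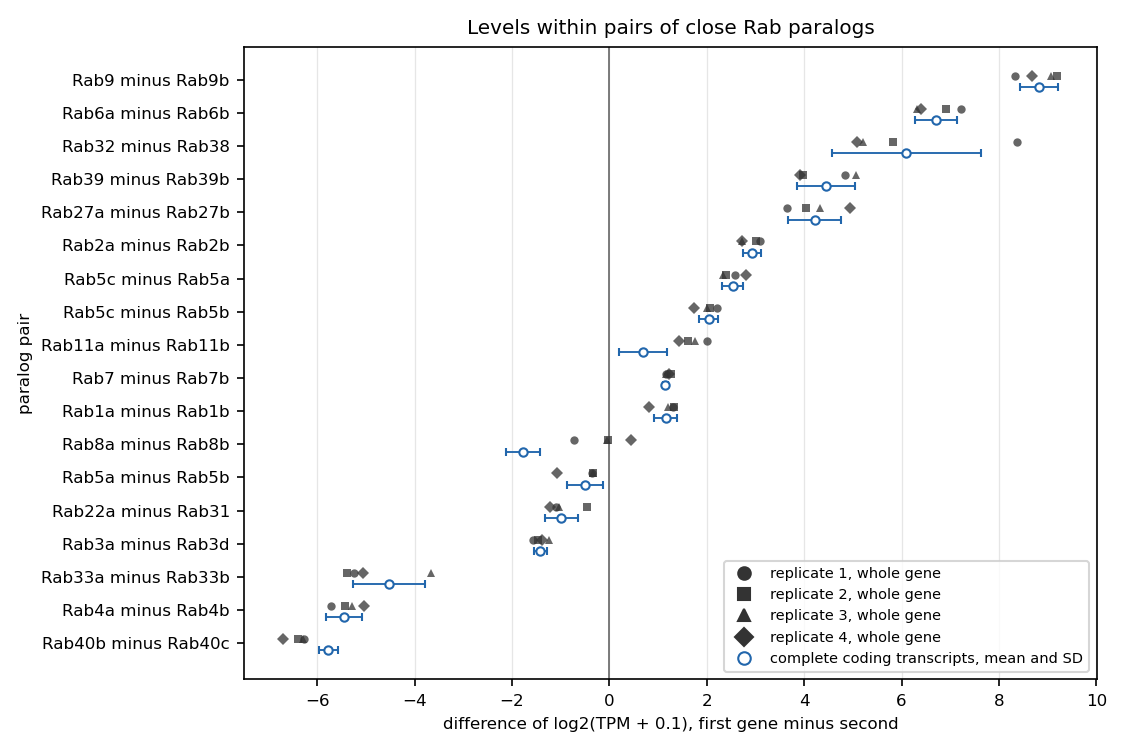
Difference of log2(TPM + 0.1) within 18 pairs of Rab paralogs, first gene minus second; dark symbols are the 4 replicate libraries for whole genes, and open blue circles with bars the mean and SD by complete coding transcripts. Only Rab8a minus Rab8b straddles 0 for whole genes; against a paralog near 0, as in Rab9 minus Rab9b, the size depends on the pseudocount.

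Levels of the 40 detected members varied between libraries about as much as those of all detected genes. The median ratio of the highest to the lowest library was 1.42 for the 40 detected members and 1.47 for all 10407 genes detected in the same way. It was under 1.5 in 60.0% of members and in 53.6% of all detected genes, and at least 2 in 4 members and in 16.8% of all detected genes. These 4 were Rab34, Rab27a, Rab3a and Rab39, all under 5 TPM. Rab38, under 1 TPM in replicate 1, is outside the 40, and its highest library was 7.79 times its lowest. Replicate 1 was the lowest library for 21 of the 40 members (52.5%), as it was for 48.4% of all detected genes. Rab8a was among these members, and Rab32 and Rab11a had their highest value there.

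Whether any member varied more than genes of its abundance was tested by the deviance of its counts against edgeR's trended dispersion. Of 44 members tested 0 were called at an adjusted p of 0.05, against a background of 2.61% of 11679 genes, and 0 members had an unadjusted p under 0.05, against 7.79% of genes. With DESeq2's dispersion trend 0 members were called, against 3.15% of genes, and 1 had an unadjusted p under 0.05, against 8.32%. The smallest adjusted p by edgeR was that of Rab11a, at 0.67. Rab38 was left out of these tests by the filter on low counts. Without that filter edgeR called 0 of 56 members, against 1.51% of 21041 genes. Of the genes that regulate or bind Rab proteins 2 were called. Rin2, an exchange factor of Rab5, had 109, 53.2, 41.3 and 40.05 TPM in replicates 1 to 4 (adjusted p = 0.00302). Rab11fip1, an effector of Rab11, had 26.4, 25.8, 10.2 and 26.05 TPM (adjusted p = 0.0215). Rin2 was thus high in replicate 1 and Rab11fip1 low in replicate 3.

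By the deposited records replicates 3 and 4 came from 4 read files each, and replicates 1 and 2 from 6 each, a technical split. Replicates 3 and 4 also had more expected counts on genes, 41453162 and 34946569, against 26613690 and 23167140 in replicates 1 and 2. Read files and depth therefore cannot be told apart here. For gene levels, 4 over 6 read files, edgeR's quasi-likelihood test called 0 of 45 members, against a background of 0.00% of 12667 genes. By edgeR 1 member, Rab27a, had an unadjusted p under 0.05, against 7.08% of genes, with a log2 difference of 0.65 and an adjusted p of 0.69. By DESeq2 0 members were called, against 0.813% of genes, and 0 had an unadjusted p under 0.05, against 6.60% of genes. Shares of transcripts were more uneven. Of 73 transcripts with a mean share of at least 5% in a detected member, 28 (38.4%) had libraries with 4 and with 6 read files that did not overlap, against a background of 40.3% of 22411 transcripts of detected genes. The share among the members is near that background.

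In Rab6a the difference was between transcripts that carry alternative versions of a coding exon. The gene is known to be made as the forms Rab6A and Rab6A′ from such exons. Rab6a-201 carries 1 version of a 106-base coding exon, and Rab6a-202 and Rab6a-203 carry the other. Both are read here from GENCODE M21 (mm10, plus strand), at chr7:100629838-100629943 and chr7:100629666-100629771, with the 30 bases that differ in capitals.
Rab6a-201 exon: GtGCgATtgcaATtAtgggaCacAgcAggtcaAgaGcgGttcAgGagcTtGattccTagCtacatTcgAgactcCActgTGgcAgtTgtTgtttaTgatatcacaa
Rab6a-202 and Rab6a-203 exon: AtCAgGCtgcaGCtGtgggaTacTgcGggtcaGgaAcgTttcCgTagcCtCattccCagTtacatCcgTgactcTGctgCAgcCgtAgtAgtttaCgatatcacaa
Transcripts with the exon of Rab6a-201 took 31.4% and 35.0% of Rab6a TPM in replicates 3 and 4, and 47.5% and 51.05% in replicates 1 and 2. Transcripts with the other exon took 67.4% and 65.0% in replicates 3 and 4, and 52.0% and 47.3% in replicates 1 and 2. The second quantification gave 34.3% and 40.1% for the exon of Rab6a-201 in replicates 3 and 4, and 54.3% and 56.6% in replicates 1 and 2. Taken singly, only Rab6a-203 was higher with 4 read files, at a mean of 61.4% against 39.4% with 6. Rab6a-202, with the same exon, was lower with 4, at 4.82% against 10.25%, as was Rab6a-201, at 33.2% against 49.3%. Rab6a-203 also has a shorter coding sequence, of 175 codons against 208 in Rab6a-201. The shift thus followed Rab6a-203 and not every transcript with its exon. Both versions were present in every library, at a gene level that hardly varied, and their summed proportion moved with the number of read files. Whether the read files play a part in it was not tested.

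**Figure D5:**
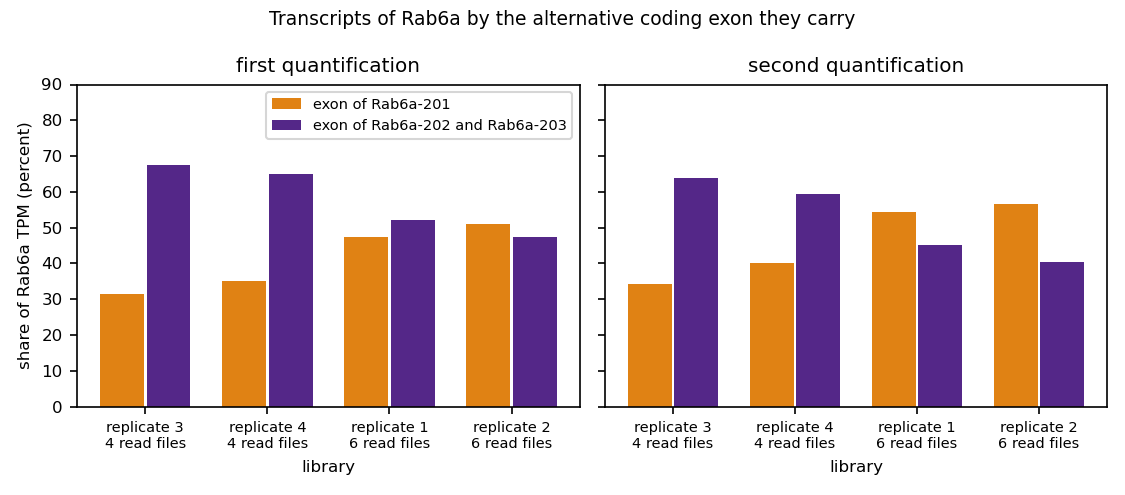
Share of Rab6a TPM in percent carried by transcripts with the exon of Rab6a-201 (orange) and with that of Rab6a-202 and Rab6a-203 (violet), by library, in the first and the second quantification; replicates 3 and 4 have 4 read files and replicates 1 and 2 have 6. The orange share is 31.4% and 35.0% in the libraries with 4 read files and higher in the others in both quantifications.

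Other members with shares that separated in this way by at least 20 percentage points were Rab3a, Rab43, Rab22a and Rab11a. The share of all detected genes that separate by that much is not given here, so these members are not shown to stand apart. Rab43-203, of 210 codons, took 47.5% and 48.2% of Rab43 in replicates 3 and 4, and 77.8% and 74.4% in replicates 1 and 2. Rab22a-202 took 28.3% and 24.6% of Rab22a in replicates 3 and 4, and 53.6% and 44.8% in replicates 1 and 2. Of the 28 transcripts 18 were apart in the same direction in the second quantification, for which the share over all detected genes is likewise not given. In 3, which include both transcripts of Rab35, the libraries were apart in the opposite direction.

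Each library was also quantified a second time from its reads by a different method. Over 12310 genes the second TPM was lower, by a median log2 difference, second minus first, of -0.41, -0.59, -0.04 and -0.13 in replicates 1 to 4, so member differences are given relative to that shift. Centred in this way, a step added after the data had been seen, 41 of 42 members were within 0.5 log2 units, against 83.9% of all genes. The exception, Rab23, was higher in the second by 0.54 (limma, adjusted p = 0.0248). At an adjusted p of 0.05 and at least 1 log2 unit limma called 0 of 42 members as deposited, against a background of 11.0% of the 12310 genes, and 23 members had an unadjusted p under 0.05, against 56.1% of genes. With no threshold on size 13 members were called, against 39.6% of genes. That count rested on single libraries: it was 0 without replicate 1, 1 without replicate 2, 23 without replicate 3 and 1 without replicate 4, with 13.0%, 17.4%, 53.2% and 14.2% of genes called. Centred, 14 members were called with no threshold on size, 4 higher and 10 lower, against 34.0% of genes. The largest of the 10 falls was that of Rab2b, by -0.20 (limma, adjusted p = 0.00656).

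The machinery that acts on Rab proteins was present as well. All 8 genes for prenylation and GDI were detected. Gdi2, a GDI, had 426, 381, 569.7 and 447 TPM, above any member by TPM. By CPM, Rab7 was above Gdi2 in replicates 1, 2 and 4, at 438, 422 and 457 against 410, 377 and 452. In replicate 3 Rab7 was below it, at 494 against 606 CPM. Rabac1, a Rab acceptor, averaged 50.4 ± 8.64 TPM (SD, n = 4). Of 44 exchange factor genes 40 were detected, led by Sh3bp5, which acts on Rab11, at 136 ± 20.0 TPM, Ccz1 of the Rab7 exchange factor at 82.1 ± 11.5 TPM and Trappc1 of the TRAPP complexes at 81.45 ± 17.2 TPM. Of 37 TBC-domain genes 32 were detected, led by Tbc1d13, a GAP of Rab35, at 163 ± 23.6 TPM, with Tbc1d20, a GAP of Rab1, at 46.9 ± 7.36 TPM and Tbc1d2b at 46.5 ± 9.09 TPM. Of 58 effector genes 45 were detected, led by the motor Myo5a at 154 ± 44.9 TPM, Rilpl2 at 134 ± 34.2 TPM and the sorting nexin Snx1 at 133 ± 7.73 TPM. By the edgeR test of variability Rin2 was the only one called of 42 exchange factor genes tested, and Rab11fip1 the only one of 48 effector genes, with 3 and 2 genes at an unadjusted p under 0.05, these included; of 8 prenylation and GDI genes and of 34 TBC-domain genes 0 were called, and 0 of either had an unadjusted p under 0.05.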

How the data were processed

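The deposited gene-level and transcript-level tables of each library hold an expected count, TPM and, for transcripts, the share of the gene in percent, per the file headers. A further deposited transcript table holds an estimated count and TPM from a second quantification, summed here per gene. The deposited records name mm10 and GENCODE M21; the programs are not given in the sources used here. TPM was scaled by the authors. Members and lists were chosen with earlier results of these data known. Detection was 1 TPM in every library. Expected counts were rounded for edgeR 4.0.16 (filterByExpr, TMM; deviance with 3 degrees of freedom) and DESeq2 1.42.0; limma 3.58.1 compared log2(TPM + 0.1). These tests ran on all genes that passed their filter, with Benjamini-Hochberg at 0.05, and were tested on simulated data. There a minimum recovery was required of the variability and quantification tests but not of the read-file test. Paralogs were compared by exact sign-flip tests in Python 3.11.15, adjusted over 18 pairs. Values by library were given for members at 100 TPM on average, the highest of each role, paralog pairs and members near 1 TPM; regulators were named if among the 3 highest of their list or called variable; 1 regulator and 1 sequence are not reported here. Alternatives were other thresholds, pseudocounts, normalizations, the second quantification and leaving out each library.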

Additional observations from a re-analysis of the deposited data

Results flagged for a closer look

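Of the 40 detected members, 1 had a library far from the others by Dixon's criterion, which sets the gap to the nearest library against the range of the 4. Rab43, an ER and Golgi member, had 42.9 TPM in replicate 1, against 65.6, 62.7 and 63.9 TPM in replicates 2, 3 and 4, and the gap was 0.869 of the range. The same criterion marked 4.89% of all 10407 detected genes, against 2.5% of members, and chance alone marks about 0.05 of such groups. The edgeR deviance test did not call Rab43 variable.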

How the results depend on the processing

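No paired comparison of treatments was possible because the labels give 1 group. The number of members detected was 40 and went from 40 to 42 when a library was left out, with Rab38 and Rab23 joining without replicate 1; other thresholds, the second quantification and complete coding transcripts gave 33 to 42. The median member level was 3.58 ± 0.30 as log2(TPM + 0.1) (SD, n = 4) and 3.47 to 3.71 with a library left out; restricted to members averaging 1 TPM or more it was 5.64. Paralog pairs with the same sign in every library numbered 17, and 17 to 18 with a library left out, Rab8a and Rab8b being the pair that joined without replicate 4. Calls among members stayed at 0 for variability, for read files and between quantifications under every alternative run, leaving out each library included, except that with no threshold on size 13 members were called between quantifications, a count that was 0 to 23 with a library left out, 8 with pseudocount 1 and 19 at a mean of 5 TPM or more. By counts not divided by length 14 of 18 paralog differences moved by more than their spread over libraries. Members led by a protein-coding transcript by share of TPM numbered 39 under every alternative run. By expected counts Rab8a was led by the protein-coding Rab8a-201, with 87.4%, so that number rests on TPM. The difference Rab8a minus Rab8b changed sign, to 0.02 in the second quantification and 0.12 without replicate 1. Of the single values 359 stayed within the spread of the libraries and 68 moved. The cause was not tested. The 359 include 40 levels and 18 paralog differences for each library left out. Those could not move, since leaving out 1 of 4 values shifts a mean by less than its SD. In the second quantification 25 levels moved and 15 stayed, and by complete coding transcripts 8 moved and 32 stayed. Depth limits members with few counts.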

Other observations

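Processed pseudogenes named after members held few counts: Rab11b-ps2 had 136 and Rab7-ps1 73.5 expected counts over the 4 libraries, and Rab9b-ps1 and Rab5a-ps had none.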
